A study of Homo sapiens with 6 samples.

Results

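The cytostatic program of TGFβ was followed here as 10 genes of the deposited count table, taken by name from 57773 genes in all. They are genes with textbook roles in this program, but the choice was made with earlier results of these data known, which holds for the counts of called genes too. The genes are the cyclin-dependent kinase inhibitors CDKN1A, CDKN1B, CDKN1C and CDKN2B, the growth-promoting genes MYC, CCND1 and CDC25A, and the GADD45 genes GADD45A, GADD45B and GADD45G. RNA-seq had been run on 6 cultures of HepG2, a cell line from a human liver tumor, at a passage number below 20. In 3 cultures human recombinant TGFB1 ligand was present at 5 ng/mL for 3 h, and in the other 3 cultures the vehicle was present for the same 3 h. According to the study's methods, both groups had been moved from medium with serum to medium without serum at the start of the treatment. The TGFβ cultures 1, 2 and 3 carry the same numbers as the vehicle cultures.

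In epithelial cells TGFβ is best known as a signal that stops the cell cycle before DNA replication. The activated receptors phosphorylate SMAD2 and SMAD3, which enter the nucleus with SMAD4 and switch genes on or off together with partner factors. In the classical account SMADs repress MYC and induce CDKN2B and CDKN1A, whose proteins hold back the kinases driven by D and E cyclins, while loss of MYC frees the inhibitor genes from repression through ZBTB17, also named MIZ1. CDC25A removes an inhibitory phosphate from these kinases and is a further repressed target in some cells. The GADD45 proteins are small stress sensors that bind and activate the kinase MAP3K4 upstream of p38, and GADD45B is an early target of TGFβ in several cell types.

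Among the 10 genes, MYC fell to less than 50% of its vehicle level, while CCND1, the gene of cyclin D1, rose 1.6-fold and GADD45B rose 3.54-fold. None of the kinase inhibitors among these 10 genes passed the test at 3 h, except CDKN2B when the culture number was used as a block. CDKN1A was 1.15-fold and CDKN2B 1.35-fold of vehicle without passing the FDR threshold of 0.05, CDKN1B was 0.961-fold, and CDKN1C had 1 read in all 6 cultures together. CDC25A and GADD45A were at 1.02-fold and 0.928-fold. GADD45G had 7 reads in each group.

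Of the 10 genes, 8 had enough reads to pass edgeR's filter on low counts and were tested, and CDKN1C and GADD45G were not. At an FDR under 0.05 in edgeR's quasi-likelihood test, adjusted over 22747 genes, 2 of the 8 rose and 1 fell. Of all tested genes, 4.12% passed, 3.11% higher and 1.01% lower with TGFβ. In 4 of the 8 the cultures of the groups did not overlap in CPM (counts scaled to library size after TMM normalization), 3 of them higher and 1 lower, against 18.6% of all tested genes in either direction. The median log2 fold change of the 8 was 0.11, and that of all tested genes was -0.01.

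**Figure D1:**
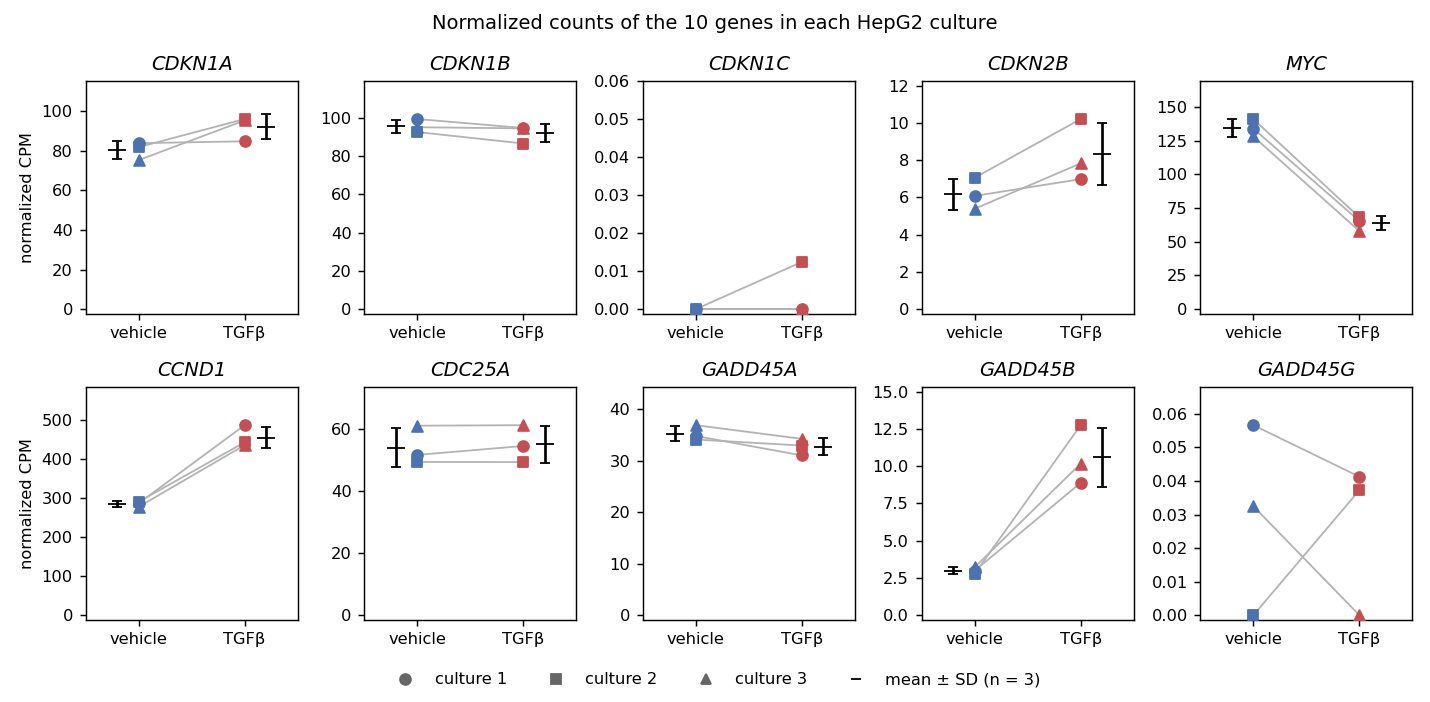
Normalized counts (CPM, vertical axis, linear, a scale of its own for each gene) of the 10 genes in vehicle and TGFβ cultures. Symbols mark the culture number, grey lines join cultures with the same number, and black bars give the mean and SD of 3 cultures for the 8 tested genes. MYC lies between 128 and 141 CPM in vehicle cultures and between 57.8 and 68.0 in TGFβ cultures, while the values of CDC25A and CDKN1B overlap between the groups.

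To show the regulatory sequence in front of these genes, 300 bases around the RefSeq start site, from 250 before it to 50 after it, were taken from RefSeq on GRCh38.p14. A match by symbol was found for 6 of the 10 genes, which are CDC25A, CDKN1A, CDKN1B, CDKN2B, GADD45B and GADD45G. The windows of GADD45B and GADD45G are shown because the former rose and its paralog had almost no reads, and those of CDKN1A and CDKN2B because these are the inhibitors that TGFβ is known to induce. GADD45B lies at chr19:2475877-2476176 (plus strand), GADD45G at chr9:89604762-89605061 (plus strand), CDKN1A at chr6:36678464-36678763 (plus strand) and CDKN2B at chr9:22009256-22009555 (minus strand). Capitals mark CAGAC (the core letters bound by SMAD3 and SMAD4), GGCGC and GGCCG (GC-rich letters that SMADs also bind) and CACGTG (the E-box of MYC and its partner MAX), each on either strand, and neighboring matches can overlap.
GADD45B: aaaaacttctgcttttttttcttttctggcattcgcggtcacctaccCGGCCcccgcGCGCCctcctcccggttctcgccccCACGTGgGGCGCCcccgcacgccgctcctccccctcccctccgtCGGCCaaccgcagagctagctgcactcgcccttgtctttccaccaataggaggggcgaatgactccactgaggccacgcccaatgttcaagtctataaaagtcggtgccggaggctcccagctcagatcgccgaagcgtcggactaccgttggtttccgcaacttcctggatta
GADD45G: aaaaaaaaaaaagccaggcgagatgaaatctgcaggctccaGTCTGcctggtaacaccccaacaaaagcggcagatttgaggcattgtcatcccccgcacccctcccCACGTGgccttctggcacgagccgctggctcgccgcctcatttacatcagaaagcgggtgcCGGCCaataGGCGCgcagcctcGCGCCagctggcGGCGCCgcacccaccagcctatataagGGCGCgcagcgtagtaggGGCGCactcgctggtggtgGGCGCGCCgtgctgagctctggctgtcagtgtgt
CDKN1A: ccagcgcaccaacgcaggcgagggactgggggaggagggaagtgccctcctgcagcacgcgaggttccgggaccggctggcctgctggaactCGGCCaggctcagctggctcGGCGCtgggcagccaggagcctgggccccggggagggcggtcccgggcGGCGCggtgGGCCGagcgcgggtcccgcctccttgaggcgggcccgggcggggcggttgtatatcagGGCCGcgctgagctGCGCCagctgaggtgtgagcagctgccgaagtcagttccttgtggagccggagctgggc
CDKN2B: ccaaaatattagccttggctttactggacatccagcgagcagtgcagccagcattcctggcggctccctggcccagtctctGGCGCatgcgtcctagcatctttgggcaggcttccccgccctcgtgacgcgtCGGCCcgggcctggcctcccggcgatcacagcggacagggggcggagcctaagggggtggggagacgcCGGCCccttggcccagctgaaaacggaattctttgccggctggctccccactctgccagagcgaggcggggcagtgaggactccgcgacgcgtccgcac

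CAGAC or its reverse complement GTCTG was found in 1 of the 6 windows, that of GADD45G with its first base 209 bases before the start, against 45.3% of all 35116 promoter windows of this length. The window of GADD45B, the gene with the largest rise, held 0 copies of CAGAC. It held CACGTG 168 bases before the start, and GADD45G held CACGTG 143 bases before the start. This E-box was found in 2 of the 6 windows and in 7.26% of all windows. All 6 windows held GGCGC, with 8 copies in GADD45G and 3 in GADD45B, and all 6 held GGCCG, against 48.6% and 49.3% of all windows. These motifs hold only G and C, and the printed windows were between 61.7% (GADD45B) and 74.3% (CDKN1A) G and C. The shares over all windows were not matched for base composition. The palindrome GTCTAGAC was found in 0 of the 6 windows (0.202% of all) and the AP-1 letters TGANTCA in 0 of the 6 (7.71% of all). A copy of these letters is not a measured binding site, and sequence farther from the start was not searched.

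The kinase inhibitors were taken first. CDKN1A (ENSG00000124762), which encodes an inhibitor of the cyclin E and cyclin A kinases and is also a target of p53, is found on chromosome 6, 36644305 to 36655116, plus strand, in hg19, the build of the deposited table. Its reads were 7401, 6780 and 4634 in vehicle cultures 1, 2 and 3 and 8215, 7727 and 6948 in the TGFβ cultures, which gave 83.8, 81.8 and 75.3 CPM with vehicle and 84.8, 96.0 and 95.3 CPM with TGFβ. The groups did not overlap, but TGFβ culture 1 exceeded vehicle culture 1 by only a small margin. The means were 80.3 ± 4.48 and 92.0 ± 6.30 CPM (SD, n = 3 cultures each). The log2 fold change was 0.20 (95% interval 0.02 to 0.37), with an unadjusted P of 0.0332 and an FDR of 0.292 in edgeR's quasi-likelihood test, which did not pass. Within culture numbers the TGFβ value was 1.01, 1.17 and 1.27 times the vehicle value, and with the culture number as a block the FDR was 0.0745.

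CDKN2B (ENSG00000147883) encodes an inhibitor of the kinases CDK4 and CDK6 (chromosome 9, 22002902 to 22009362, minus strand). It had 537, 585 and 332 reads with vehicle and 677, 822 and 571 reads with TGFβ. In CPM these were 6.08, 7.06 and 5.39 with vehicle and 6.99, 10.2 and 7.83 with TGFβ, so that TGFβ culture 1 lay below vehicle culture 2 and the groups overlapped. Each TGFβ culture was nevertheless above the vehicle culture of its own number, by 1.15, 1.45 and 1.45 times. The log2 fold change was 0.43 (95% interval 0.06 to 0.80, FDR 0.264), and it ranged from 0.25 without TGFβ replicate 2 to 0.54 without TGFβ replicate 1. With the culture number as a block it was 0.42 (standard error, SE, 0.11) and passed (FDR 0.0232). The block also raised the background, to 8.08% of tested genes higher and 3.75% lower, and with it 3 of the 8 genes were higher and 1 was lower.

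The locus of CDKN2B is shared with other rows of the table. The interval of CDKN2B-AS1, the antisense RNA of this locus on the plus strand, spans all 6461 bases of the interval of CDKN2B. It had between 42 and 75 reads per culture, at a log2 fold change of 0.26 (SE 0.25, FDR 0.776). A further row on the plus strand, named for a genomic clone, also spans it and had between 583 and 814 reads, about as many as CDKN2B, at a log2 fold change of -0.19 (SE 0.13, FDR 0.624). These intervals include introns, and the lengths given for the rows are far shorter, 4225 bases for CDKN2B-AS1 and 935 for the clone row. Whether their counted bases overlap those of CDKN2B is not shown by the intervals. The use of strand in counting is not given in the sources used here, so reads of these rows and of CDKN2B cannot be told apart where counted bases overlap. How far they entered the count of CDKN2B was not tested.

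CDKN1B (ENSG00000111276, chromosome 12 from 12867992 to 12875305, plus strand), which encodes an inhibitor regulated mostly through the turnover of its protein, had between 92.6 and 99.4 CPM with vehicle and between 86.6 and 94.7 CPM with TGFβ. The groups overlapped, with means of 95.7 ± 3.44 and 92.0 ± 4.63 CPM (SD, n = 3). Its log2 fold change of -0.06 had a 95% interval from -0.22 to 0.10 (FDR 0.827). CDKN1C (ENSG00000129757, chromosome 11 from 2904443 to 2907111, minus strand), an imprinted gene of the same inhibitor family, had 0 reads in 5 cultures and 1 read in TGFβ culture 2. A count of 0 over the 3 vehicle cultures allows up to 3 reads over the group, or 0.0129 CPM. This limit covers counting error only, and it does not apply to the TGFβ cultures, which held 1 read. CDKN1C was not tested, and no difference between the groups could be called at this depth.

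MYC (ENSG00000136997) encodes the transcription factor that drives ribosome production and cell growth, and its messenger RNA is short-lived. Its position is chromosome 8, 128747680 to 128753674, plus strand. With vehicle it had 11822, 11685 and 7887 reads and with TGFβ 6333, 5472 and 4215 reads, or 134, 141 and 128 CPM against 65.4, 68.0 and 57.8 CPM. The lowest vehicle culture was well above the highest TGFβ culture, and the spread within each group was small. From 134 ± 6.47 to 63.7 ± 5.28 CPM (SD, n = 3), the log2 fold change was -1.08 (95% interval -1.26 to -0.89, FDR 9.92e-05), or 2.11-fold lower. Within culture numbers the TGFβ value was 0.488, 0.482 and 0.451 of the vehicle value. The fall passed in all 13 alternative fits, with log2 fold changes from -1.14 to -1.02 when single cultures were left out.

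CCND1 (ENSG00000110092) encodes cyclin D1, the partner of CDK4 and CDK6 that links growth signals to the start of the cell cycle. The gene (chromosome 11, 69455855 to 69469242, plus strand) held the most reads of the 10 genes, 25342, 24122 and 17121 with vehicle and 47271, 35724 and 31823 with TGFβ. In CPM these were 287, 291 and 278 with vehicle and 488, 444 and 437 with TGFβ, without overlap. The mean went from 285 ± 6.67 to 456 ± 27.7 CPM (SD, n = 3), a log2 fold change of 0.68 (95% interval 0.51 to 0.84, FDR 0.000689). The ratios within culture numbers were 1.70, 1.53 and 1.57. All 13 alternative fits kept the rise past the threshold, and without single cultures the log2 fold change lay between 0.62 and 0.70.

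At the end of CCND1, 1399 bases are also part of ORAOV1, a gene that runs in the opposite direction on the minus strand from 69467844 to 69490184. ORAOV1 had 4570, 3971 and 2699 reads with vehicle and 7549, 5739 and 4654 reads with TGFβ (log2 fold change 0.57, SE 0.09, FDR 0.00813). Without vehicle replicate 3 its FDR was 0.0518. CCND1 had 5.55 to 6.84 times as many reads as ORAOV1 in each culture. Whether reads of the shared bases were counted for both genes is not given, and their part in either rise was not tested.

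CDC25A (ENSG00000164045, chromosome 3 from 48198636 to 48229892, minus strand) encodes a phosphatase that activates cyclin-dependent kinases. It had 51.6, 49.3 and 61.0 CPM in vehicle cultures 1, 2 and 3 and 54.5, 49.3 and 61.2 CPM in the TGFβ cultures of the same numbers. The cultures of each number lay close together, with ratios of 1.06, 0.999 and 1.00, and differed more between numbers than between treatments. Its log2 fold change was 0.03 (95% interval -0.21 to 0.26, FDR 0.952), and its sign changed with total-count scaling. Of the 3 short pseudogenes inside it, NDUFB1P1 had the most reads, at most 17 in a culture.

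The GADD45 genes differed sharply in level and in response. GADD45B (ENSG00000099860, chromosome 19 from 2476120 to 2478257, plus strand) had 264, 231 and 198 reads with vehicle and 861, 1026 and 742 reads with TGFβ. These were 2.99, 2.79 and 3.22 CPM against 8.89, 12.8 and 10.2 CPM, so each TGFβ culture was far above all vehicle cultures. The mean rose from 3.00 ± 0.214 to 10.6 ± 1.97 CPM (SD, n = 3), a log2 fold change of 1.82 (95% interval 1.47 to 2.18, FDR 0.000203). The ratio was 2.97 for culture 1, 4.57 for culture 2 and 3.17 for culture 3. The rise passed in all 13 alternative fits, and without single cultures its log2 fold change lay between 1.66 and 1.93.

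GADD45A (ENSG00000116717, chromosome 1 from 68150744 to 68154021, plus strand), the family member induced by DNA damage through p53, had 34.8, 34.1 and 36.9 CPM with vehicle and 31.0, 32.9 and 34.2 CPM with TGFβ. The groups overlapped by a small margin, and each TGFβ culture was below the vehicle culture of its number, at 0.891, 0.966 and 0.928 of its value. The log2 fold change was -0.11 (95% interval -0.28 to 0.06, FDR 0.657). GADD45G (ENSG00000130222, chromosome 9 from 92219928 to 92221470, plus strand) had 5, 0 and 2 reads with vehicle and 4, 3 and 0 reads with TGFβ. The scaled ratio of its 7 reads to 7 was 0.930, with an exact 95% interval from 0.278 to 3.11. This interval covers counting error only and not the spread between cultures, so a rise as large as that of GADD45B was not excluded. No change of GADD45G in either direction could be called at this depth.

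**Figure D2:**
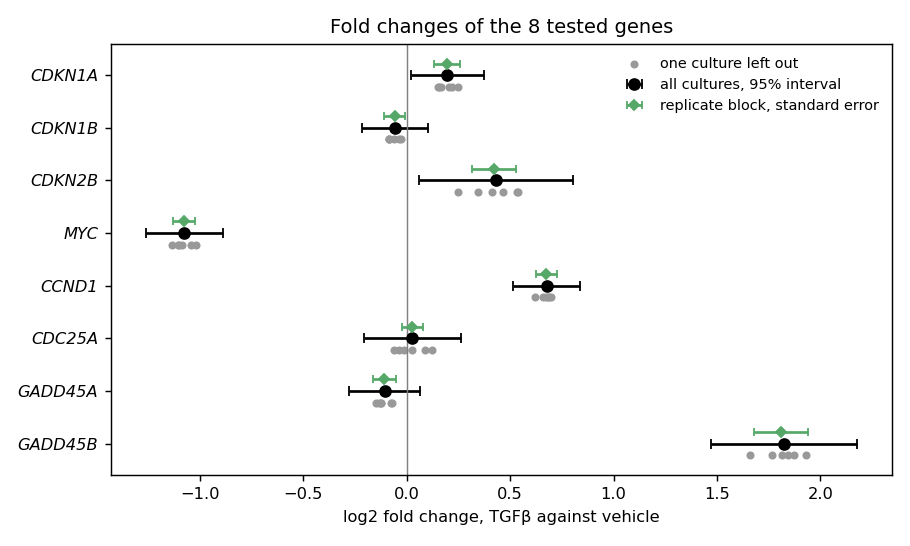
Log2 fold change of TGFβ against vehicle (horizontal axis) for the 8 tested genes. Black points are the fit with all cultures and their 95% intervals, green diamonds the fit with the culture number as a block and its SE, and grey points the fits with single cultures left out. The intervals of MYC, CCND1 and GADD45B lie far from 0, and the interval of CDKN2B reaches from 0.06 to 0.80.

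Ratios of genes within a culture do not depend on the scaling between libraries. The deposited RPKM, which divides the reads by gene length and library total, was used to compare levels between genes. CCND1 had 1.33, 1.28 and 1.35 times the RPKM of MYC in the vehicle cultures and 4.63, 4.05 and 4.68 times in the TGFβ cultures. CDKN1A had 0.628, 0.582 and 0.590 times the RPKM of MYC with vehicle and 1.30, 1.42 and 1.65 times with TGFβ, so that the order of these genes turned in each culture. GADD45B made up 7.90%, 7.55% and 8.01% of all reads on the GADD45 genes with vehicle and 22.2%, 27.9% and 22.9% with TGFβ. None of these ratios overlapped between the groups.

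In RPKM, the order of the levels with vehicle was CCND1 (48.9 ± 2.13, SD, n = 3), MYC (37.1 ± 2.60), CDKN1B (28.2 ± 0.653), CDKN1A (22.3 ± 1.48), GADD45A (14.1 ± 0.415), CDC25A (10.8 ± 1.09), CDKN2B (1.26 ± 0.199) and GADD45B (1.16 ± 0.0615). GADD45G and CDKN1C were near 0. Among the tested genes, only the neighbors CDKN2B and GADD45B overlapped in their cultures. With TGFβ, MYC stood at 17.2 ± 2.00 RPKM, below CDKN1B (26.3 ± 0.931) and CDKN1A (24.8 ± 1.82), whose cultures overlapped. GADD45B at 4.003 ± 0.833 RPKM was then above CDKN2B at 1.66 ± 0.374 RPKM, with no overlap. In both groups CCND1 was at the top, at 76.1 ± 5.995 RPKM with TGFβ.

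**Figure D3:**
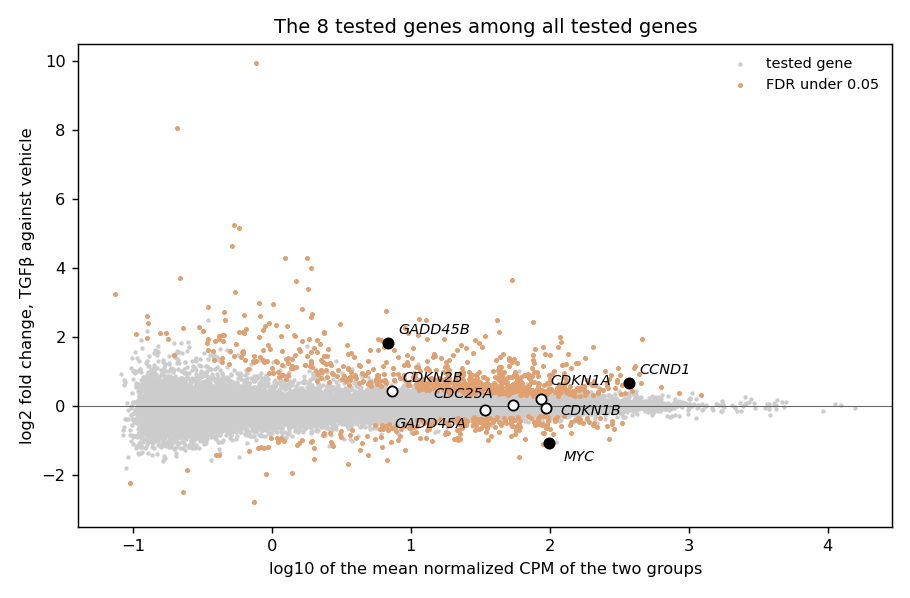
Log2 fold change of TGFβ against vehicle (vertical axis) against the log10 of the mean CPM of both groups (horizontal axis) for all 22747 tested genes. Grey points are tested genes, orange points passed an FDR of 0.05, and the 8 tested genes of the cytostatic program are drawn as filled circles where they passed and open circles where they did not. MYC at -1.08 and CCND1 at 0.68 passed, while CDKN1A, CDKN1B, CDC25A and GADD45A did not pass and lie between -0.11 and 0.20.

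The treatment and the cells were checked once. The TGFβ feedback genes SMAD7, SKIL and PMEPA1 rose by log2 fold changes of 1.72, 2.45 and 4.30. Libraries held between 60815385 and 100099136 reads on genes. All 9 hepatocyte markers examined, from ALB to HNF4A, were at 28.6 CPM or more in each culture, and 6 of 8 markers of other cell types never exceeded 0.144 CPM, PTPRC of leukocytes among them. CD68 had an FDR of 0.831. COL1A1, a collagen gene of fibroblasts, was at 7.54 ± 2.27 CPM with vehicle and 11.2 ± 0.964 CPM with TGFβ (SD, n = 3), without overlap (log2 fold change 0.57, FDR 0.193), and passed with the culture number as a block (FDR 0.00806). Of the hepatocyte markers 0 passed in edgeR's test, at an unadjusted P under 0.05, with DESeq2 or with limma-voom. With the block TTR (log2 fold change -0.25, FDR 0.0495) and FGB (-0.22, FDR 0.0331) were lower, although their groups overlapped. The part of these markers in the other results was not tested. These are bulk RNA samples, in which fewer cells with a transcript and less of it per cell cannot be told apart.

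Beyond these genes, 6 lists of other cell cycle and stress genes were read from the same fit, and their counts stand against the 3.11% of all tested genes that were higher and the 1.01% that were lower, or 8.08% and 3.75% with the block. At an unadjusted P under 0.05 in edgeR's test, 1976 of the 22747 tested genes were higher and 1131 lower. DESeq2 called 1012 higher and 408 lower, and limma-voom 679 and 212. A list of 25 other genes of the cell cycle engine (cyclins, kinases, phosphatases and their regulators) was tested in full, of which 2 rose. WEE1, the kinase that keeps CDK1 inactive before mitosis, went from 73.3 ± 13.7 to 127 ± 8.23 CPM (SD, n = 3) (log2 fold change 0.79, SE 0.13, FDR 0.00681). CDKN2D, an inhibitor of CDK4 and CDK6 from the family of CDKN2B, went from 4.13 ± 0.296 to 6.22 ± 0.696 CPM (log2 fold change 0.59, SE 0.14, FDR 0.0452). WEE1 passed without any single culture, whereas CDKN2D passed only without TGFβ replicate 3 (FDR 0.0421) and had an FDR between 0.0795 and 0.218 without each of the others. In edgeR's test 0 genes of the list fell, with 1 lower by DESeq2 and 0 by limma-voom. At an unadjusted P under 0.05 in edgeR's test, 7 were higher and 2 lower. The cyclin genes CCND2 (log2 fold change 0.49, FDR 0.221) and CCND3 (0.29, FDR 0.338) were among the higher. So were CCNE1 (0.40, FDR 0.179), CCNE2 (0.33, FDR 0.307) and PKMYT1 (0.30, FDR 0.0992). The 2 lower genes were CDK6, a partner of cyclin D1, at a log2 fold change of -0.38 (FDR 0.0635), and SKP2, which marks CDKN1B for destruction, at -0.33 (FDR 0.119). The genes named here that did not pass were chosen for mention after their values were seen. With the block 8 genes were higher and 2 lower. The median log2 fold change of the 25 genes was 0.05.

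Of 32 genes of RB, E2F and proliferation, which carry out the step into DNA replication and division, 2 rose and 0 fell. At an unadjusted P under 0.05 in edgeR's test, 6 were higher, among them E2F3 and E2F7. The others were E2F1 (log2 fold change 0.26, FDR 0.113), E2F8 (0.28, FDR 0.349), MCM4 (0.19, FDR 0.244) and MCM5 (0.19, FDR 0.306). E2F5 alone was lower, at -0.20 with an FDR of 0.283. DESeq2 and limma-voom called 0 lower. E2F3, an activator of replication genes, was higher by 0.34 on the log2 scale (SE 0.07, FDR 0.0264), and E2F7, a repressor of the same family, had 0.32 (SE 0.07, FDR 0.0385). When single cultures were dropped, E2F3 passed only without TGFβ replicate 3 (FDR 0.0273) and E2F7 never passed, with FDRs from 0.0728 to 0.167. The median of the list was 0.08, and 28 of its 32 values were positive. Of all tested genes 11140 values were positive and 11607 negative. With the block 8 of the 32 were higher and 0 lower, against 8.08% and 3.75% of all tested genes.

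The list of the MYC network and its targets, with 23 of 24 genes tested, had a median of -0.13, and 18 of the 23 values were negative. RRS1, a ribosome assembly factor, fell from 56.4 ± 5.46 to 39.7 ± 3.65 CPM (SD, n = 3) (log2 fold change -0.50, SE 0.10, FDR 0.0164), and was the 1 gene that passed in edgeR's test without the block, while DESeq2 called 2, RRS1 and MXI1. Leaving out vehicle replicate 3 gave RRS1 an FDR of 0.0826, with 0 genes of the list lower. Leaving out TGFβ replicate 2 gave it 0.0655, and without TGFβ replicate 3 the list had 2 genes lower. No gene of the list rose, with 0 higher by DESeq2 or by limma-voom. At an unadjusted P under 0.05 in edgeR's test, 0 were higher and 6 lower. With the block 5 were lower, RRS1, the nucleolar genes NOP56 and NOLC1, and MXI1 and MXD1, which encode partners of MAX that oppose MYC. The targets ODC1 (log2 fold change 0.02, FDR 0.946), LDHA (0.01, FDR 0.966) and SRM (0.01, FDR 0.983) stayed near their vehicle level. MXI1 had a log2 fold change of -0.54 (FDR 0.0793, with the block 0.00409 and with DESeq2 0.00771). PVT1, the noncoding gene next to MYC, had -0.27 (FDR 0.331). ZBTB17, the factor through which MYC holds down CDKN1A and CDKN2B, had 0.05 (FDR 0.895).

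Of the 20 p53 target genes, a class to which CDKN1A and GADD45A also belong, 0 passed in edgeR's test in either direction, and 2 were higher and 0 lower at an unadjusted P under 0.05, against 13.7% of all tested genes at this P in either direction. DESeq2 and limma-voom called 0 as well. The 2 genes, BBC3 at a log2 fold change of 0.34 (FDR 0.165) and TP53INP1 at 0.28 (FDR 0.270), passed with the block, at FDRs of 0.00981 and 0.00354. The median of the list was 0.06.

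Of 14 genes for partners of GADD45 proteins and for stress responses, 2 rose. MAPK14, which encodes the p38 kinase downstream of GADD45 proteins and MAP3K4, went from 136 ± 5.44 to 187 ± 3.25 CPM (SD, n = 3) (log2 fold change 0.47, SE 0.07, FDR 0.00361), and passed without any single culture. DDIT4, an inhibitor of mTOR signaling, went from 79.2 ± 22.9 to 184 ± 42.7 CPM (log2 fold change 1.21, SE 0.21, FDR 0.0106). It did not pass when TGFβ replicate 1 (FDR 0.0723) or 2 (0.0601) was dropped, nor with no filter on low counts (0.278). In edgeR's test 0 genes fell, with 0 lower by DESeq2 and 0 by limma-voom, and the median was 0.11. At an unadjusted P under 0.05 in edgeR's test, 2 were higher and 1 lower. The gene lower at the unadjusted P was MAP2K6, a kinase that activates p38, with 14.4 ± 1.98 CPM with vehicle and 10.7 ± 1.83 CPM with TGFβ, without overlap (log2 fold change -0.42, FDR 0.210). With the block it passed (FDR 0.00406), and 3 genes of the list were higher and 1 lower.

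Of 13 transcription factors and coactivators that work with SMADs or on the inhibitor genes, 11 were tested and 2 rose. TGIF1, a SMAD corepressor, went from 30.8 ± 4.50 to 56.2 ± 7.52 CPM (SD, n = 3) (log2 fold change 0.87, SE 0.13, FDR 0.00402), and passed without any single culture. RUNX1, a partner of SMADs, had 0.47 (SE 0.10, FDR 0.0275), and it did not pass when vehicle replicate 1 (FDR 0.0800) or 2 (0.126) or TGFβ replicate 1 (0.100) or 2 (0.0574) was dropped. FOXO1, which works with SMADs on CDKN1A, had 0.41 (FDR 0.108), and passed with DESeq2 (FDR 0.0382) and with the block (FDR 0.000809). No gene of this list fell in edgeR's test, with 0 lower by DESeq2 or limma-voom. At an unadjusted P under 0.05 in edgeR's test, 3 were higher and 1 lower. The lower gene was TGIF2, a paralog of TGIF1, with 89.9 ± 4.47 CPM with vehicle and 79.1 ± 5.58 CPM with TGFβ, without overlap (log2 fold change -0.18, FDR 0.331). With the block it passed (FDR 0.0334), and 3 genes were higher and 1 lower. The median was 0.13.

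**Figure D4:**
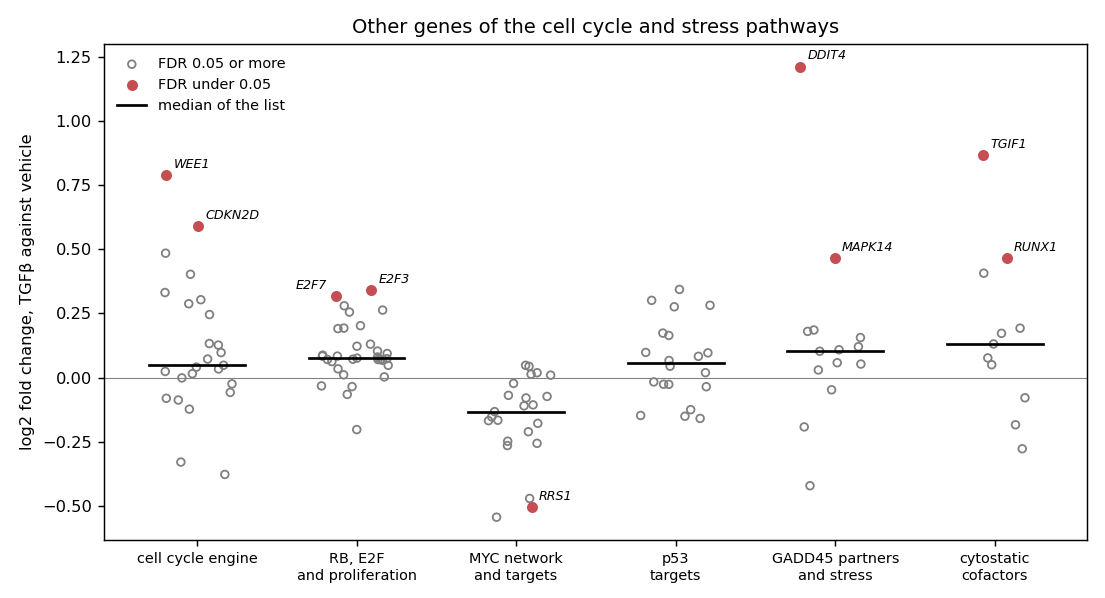
Log2 fold change of TGFβ against vehicle (vertical axis) of the tested genes in the 6 lists, spread sideways at random within a list. Filled red points passed an FDR of 0.05 and are named, open points did not, and black lines are medians. The list of the MYC network and its targets has its median at -0.13, and the other medians lie between 0.05 and 0.13.

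To find which genes followed the 3 called members most closely over the 6 cultures, log2 CPM values were correlated with those of the 132 other tested genes of the lists and of the program. MYC was followed best by MXD1 (Pearson's r = 0.963), MXI1 (0.915) and PVT1 (0.910). CCND1 was followed best by E2F7 (0.986), MAPK14 (0.983) and E2F3 (0.966), and GADD45B by the same genes, E2F7 (0.974), E2F3 (0.968) and MAPK14 (0.963). These values describe 6 cultures of which 3 received TGFβ, so that any gene that moved with the treatment scores high, and cultures with the same number share a lane for numbers 1 and 2.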

How the data were processed

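RNA-seq libraries (TruSeq v2, paired reads) of 3 vehicle and 3 TGFβ cultures of HepG2 cells were used, grouped and numbered by their sample titles. According to the submitters' processing notes and the study's methods, the authors aligned reads to hg19 with TopHat2 2.0.6 and counted them per gene with HTSeq within MAPRseq. The deposited counts are raw whole numbers, and the deposited RPKM values divide them by the table's length column and a library total the authors chose. For the annotation release and strand setting: not given in the sources used here. Depth was 60815385 to 88415362 reads on genes with vehicle and 73263662 to 100099136 with TGFβ.

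Counts were fitted with edgeR 4.0.16 (R 4.3.3): filterByExpr (22747 of 57773 genes), TMM, robust quasi-likelihood F test, Benjamini-Hochberg FDR. Standard errors follow from the F statistic and 95% intervals from its degrees of freedom. Correlations used log2(CPM + 0.05). CKS1B and RBL1 occur more than once by name and were matched by Ensembl ID. Alternatives were DESeq2 1.42.0 and its size factors, total-count scaling, limma-voom (limma 3.58.1), other filters, a block, and leaving out each culture. The study's methods call the sequenced samples biological replicates and, for its graphs, speak of independent ones. Whether the cultures were grown on separate days is not given in the sources used here. The p-values measure the spread between these samples.

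Culture numbers were taken as pairs for the ratios within numbers and for the block, while the main fit used no pairing. The reason for the pairs was that deviations from the group means correlated by 0.227 to 0.366 across genes for equal numbers. For other numbers they correlated by at most 0.0101, but deviations from a group mean cancel within the group. Positive values for equal numbers therefore lower the others, which are no separate evidence for pairs. The labels put cultures 1 and 2 of both groups on the lane of their partner and cultures 3 on lanes 4 and 5. Replicates differed beyond counting noise (chi-square per gene 19.2 to 41.3). The members and lists were chosen with earlier results of these data known. Named genes were all members, the genes of each list with the largest changes past the threshold (up to 4 each way), rows overlapping a member, the 3 list genes correlating best with each called member, and 3 feedback genes. Other genes named were chosen after their values were seen.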

Additional observations from a re-analysis of the deposited data

How the results depend on the processing

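MYC, CCND1 and GADD45B kept their direction and their side of the threshold in all 13 alternatives, so 2 members were higher and 1 lower in each, except that 3 were higher with the replicate block. The block, which used the shared culture numbers, brought CDKN2B past the threshold (log2 fold change 0.42, FDR 0.0232) and changed no other call among the members. CDC25A, which was not called, changed sign with total-count scaling (-0.014) and lay between -0.064 and 0.12 with single cultures left out.

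The counts over the lists were small and moved more. With the replicate block, 8 cell cycle engine genes were higher and 2 lower, 8 RB, E2F and proliferation genes were higher, 5 MYC network genes were lower, 2 p53 targets were higher, and the GADD45 partners and the cytostatic cofactors each had 1 gene lower. With total-count scaling 1 cell cycle engine gene was higher and 1 lower, and 1 RB, E2F and proliferation gene was higher. Without a filter 2 cell cycle engine genes were lower, 1 RB, E2F and proliferation gene was higher, 2 MYC network genes were lower and 1 GADD45 partner was higher. At least 10 counts in every library gave 1 cell cycle engine gene lower, and DESeq2 gave 1 cell cycle engine gene and 2 MYC network genes lower. With single cultures left out, 1 to 2 cell cycle engine genes, 0 to 1 RB, E2F and proliferation genes, 1 to 2 GADD45 partners and 1 to 2 cytostatic cofactors were higher, and 0 to 2 MYC network genes were lower. Counts over all tested genes moved as well, from 707 higher and 230 lower of 22747 in the main fit. They were 394 and 91 of 23187 without vehicle replicate 3, and 778 and 220 of 23320 without TGFβ replicate 3. Total-count scaling gave 636 and 297, DESeq2 1012 and 408, and the replicate block 1837 and 853. The causes were not tested. CDKN1C and GADD45G had too few reads at this depth for a test.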
